A study of Mus musculus with 18 samples.

Results

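The mTOR complexes and their nearest regulators were examined through 10 genes, *Mtor*, *Rptor*, *Rictor*, *Deptor*, *Mlst8*, *Tsc1*, *Tsc2*, *Rheb*, *Rps6kb1* and *Eif4ebp1*, of 21951 protein-coding genes in the annotation. Their regions were all those that overlapped the gene body extended by 5 kb on each side, which were 293 of 411770 listed regions in CD11b+ cells and 353 of 553467 in CD4+ cells. The rule that picks the regions uses the genes' names and positions and no methylation value. DNA methylation had been measured by whole-genome bisulfite sequencing (WGBS), in which bisulfite converts unmethylated cytosines and spares methylated ones, in cells separated on magnetic columns from the spleen of C57BL/6-background mice. The CD11b+ fraction is mostly myeloid and the CD4+ fraction is mostly helper T cells.

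The control group was *Dnmt3a*+/+ (WT), and the other group carried a heterozygous R878H mutation of the DNA methyltransferase gene *Dnmt3a*, written Dnmt3aR878/+ in the labels and R878H/+ here. The mutation was switched on by Vav1-iCre, which is active in blood-forming cells, so the cells compared descend from progenitors that already carried it. Whether the WT mice of this experiment carried the Cre is not given in the sources used here. Each of the 4 combinations of genotype and cell type had 4 mice, and the R878H/+ CD11b+ group has 6 entries because replicates 3 and 4 were entered more than once.

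The mTOR kinase is the catalytic subunit of a pair of complexes that set cell growth to nutrients and growth factors. mTORC1 is defined by raptor (*Rptor*) and mTORC2 by rictor (*Rictor*), mLST8 belongs to both, and DEPTOR inhibits both. Upstream, the complex of TSC1 and TSC2 switches off the small GTPase Rheb, which otherwise activates mTORC1. Downstream, mTORC1 phosphorylates S6 kinase (*Rps6kb1*) and the translation repressor 4E-BP (*Eif4ebp1*). In T cells mTOR signaling guides the choice of effector fate, and in myeloid cells it is linked to metabolism and inflammatory output. DNMT3A places new methyl groups on CpGs, where low methylation over a start or an enhancer usually goes with its use.

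Each listed region has a mean methylation percent for WT and one for R878H/+, which are the authors' means over mice, and a count of CpG cytosines. Values of single mice and the read depth of a region are not in these tables, so the means carry no error and no difference could be tested. Every difference below is therefore a description, and its direction rests on reading the first group of each table as WT. A region was called lower or higher where it had more than 10 CpG cytosines, with both strands counted, and a difference above 20 percentage points. In the text, loss is the WT mean minus the R878H/+ mean.

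The cells matched their labels by methylation of lineage genes in WT mice. Regions within 1 kb of myeloid starts were less methylated in CD11b+ than in CD4+ cells for 9 of 9 genes with values in both, and T cell gene bodies were less methylated in CD4+ cells for 9 of 12. B cell gene bodies were less methylated in the CD11b+ fraction for 6 of 8 genes, and NK cell gene bodies for 2 of 3. The part of other cells of the fractions in the results was not tested. Mitochondrial DNA differed between the genotypes as well, with a median over regions of 15.1% in WT CD11b+ cells against 18.1% with the mutation, and of 13.8% in WT CD4+ cells against 8.56% with it. Running numbers in the sample titles were 200 or above in 4 of 4 R878H/+ CD4+ entries, 1 of 4 WT CD4+ entries, 2 of 6 R878H/+ CD11b+ entries and 0 of 4 WT CD11b+ entries. What the numbers stand for is not given, and in CD4+ cells they largely cannot be told apart from genotype.

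Of the regions called lower, those with the largest losses are printed first, one row per stretch of sequence. The means described below belong to whole regions, of which a stretch may hold only the central part. Stretches over an untranslated region were passed over, and where called regions of both cell types gave overlapping stretches the one with the larger loss is shown. Regions of exactly 10 cytosines are not among them, though some had larger losses. The *Tsc1* stretch lies upstream of the gene at chr2:28638675-28638974. The *Rptor* stretches lie across exon 9 at chr11:119799333-119799632, in intron 24 at chr11:119875888-119875931 and in intron 9 at chr11:119803565-119803864. The *Deptor* stretch lies in intron 4 at chr15:55196508-55196807 and the *Eif4ebp1* stretch in intron 1 at chr8:27264250-27264549. All are the plus strand of mm10, with up to 300 bases around the centre of the region, and capitals mark each CpG.
Tsc1 upstream: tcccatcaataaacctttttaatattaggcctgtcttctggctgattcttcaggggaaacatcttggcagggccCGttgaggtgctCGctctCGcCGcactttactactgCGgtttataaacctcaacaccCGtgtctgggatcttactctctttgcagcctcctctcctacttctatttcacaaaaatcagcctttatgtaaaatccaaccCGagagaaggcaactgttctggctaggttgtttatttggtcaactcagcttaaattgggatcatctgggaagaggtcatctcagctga
Rptor exon 9: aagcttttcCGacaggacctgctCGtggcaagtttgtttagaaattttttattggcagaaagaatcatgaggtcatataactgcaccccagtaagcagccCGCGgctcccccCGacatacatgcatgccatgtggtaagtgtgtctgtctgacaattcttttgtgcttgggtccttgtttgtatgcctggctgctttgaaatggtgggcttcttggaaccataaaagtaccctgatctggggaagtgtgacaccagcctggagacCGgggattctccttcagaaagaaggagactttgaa
Rptor intron 24: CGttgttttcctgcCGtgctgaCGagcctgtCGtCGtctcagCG
Deptor intron 4: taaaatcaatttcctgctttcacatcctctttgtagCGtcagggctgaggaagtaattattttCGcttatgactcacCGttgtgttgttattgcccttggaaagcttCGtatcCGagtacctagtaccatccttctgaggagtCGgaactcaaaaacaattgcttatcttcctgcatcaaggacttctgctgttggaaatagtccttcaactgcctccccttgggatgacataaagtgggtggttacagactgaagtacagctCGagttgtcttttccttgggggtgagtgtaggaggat
Eif4ebp1 intron 1: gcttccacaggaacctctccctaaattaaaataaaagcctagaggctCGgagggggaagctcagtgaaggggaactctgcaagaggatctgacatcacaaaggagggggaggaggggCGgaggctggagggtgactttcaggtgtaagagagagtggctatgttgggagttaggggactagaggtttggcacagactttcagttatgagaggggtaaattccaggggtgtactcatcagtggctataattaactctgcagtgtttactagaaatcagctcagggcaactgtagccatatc
Rptor intron 9: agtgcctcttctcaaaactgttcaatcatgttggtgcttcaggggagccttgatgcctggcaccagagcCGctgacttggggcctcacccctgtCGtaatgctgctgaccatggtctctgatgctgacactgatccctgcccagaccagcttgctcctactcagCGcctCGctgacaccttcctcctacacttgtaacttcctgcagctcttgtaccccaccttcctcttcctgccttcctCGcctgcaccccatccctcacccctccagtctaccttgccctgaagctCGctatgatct

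The stretches of 300 bases held 2 to 7 CpGs, and the short *Rptor* intron 24 region held 6 CpGs in 44 bases. In CD4+ cells the mean of that short region was 74.8% in WT and 43.1% in R878H/+.

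Across the members, methylation was lower in R878H/+ cells at most regions and by a small amount. Of the regions with more than 10 CpG cytosines in CD11b+ cells, 103 had a lower R878H/+ mean (92.0%), with a median of 92.4% in WT and 86.6% in R878H/+ and a median loss of 5.40 points (interquartile range over regions 3.38 to 9.85). In CD4+ cells 150 of 157 regions were lower (95.5%), with medians of 93.5% and 86.4% and a median loss of 6.04 points (3.85 to 9.44). Both medians were below those of all listed regions of the same size, 6.6 points for the CD11b+ table with 95.7% of regions lower and 6.85 points for the CD4+ table with 97.3% lower.

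Large losses were found at a subset of the genes. In CD11b+ cells 8 regions of the members were called lower (7.14%), beside 7.75% of all 172177 regions, and 1 was called higher, beside 0.298%. In CD4+ cells 13 of the 157 were called lower (8.28%), beside 6.89% of all 247222 regions, and 0 were called higher, beside 0.00769%. The shares of the members were near those of all regions in both cell types. By gene, 5 of 10 members had a region called lower in CD11b+ cells, beside 32.8% of all genes with listed regions, and 6 of 10 in CD4+ cells, beside 36.4%. *Rptor*, *Deptor*, *Mlst8*, *Tsc1* and *Eif4ebp1* were in both counts and *Rictor* in that of CD4+ cells. *Mtor*, *Tsc2*, *Rheb* and *Rps6kb1* had no called region in either. The shares of all genes are not matched for the number of regions per gene. Among genes with at least as many regions as the member, the share with a lower call in CD11b+ cells ran from 32.8% for *Rps6kb1* to 88.4% for *Rptor*. In CD4+ cells it ran from 36.4% to 84.0% for the same genes.

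**Figure D1:**
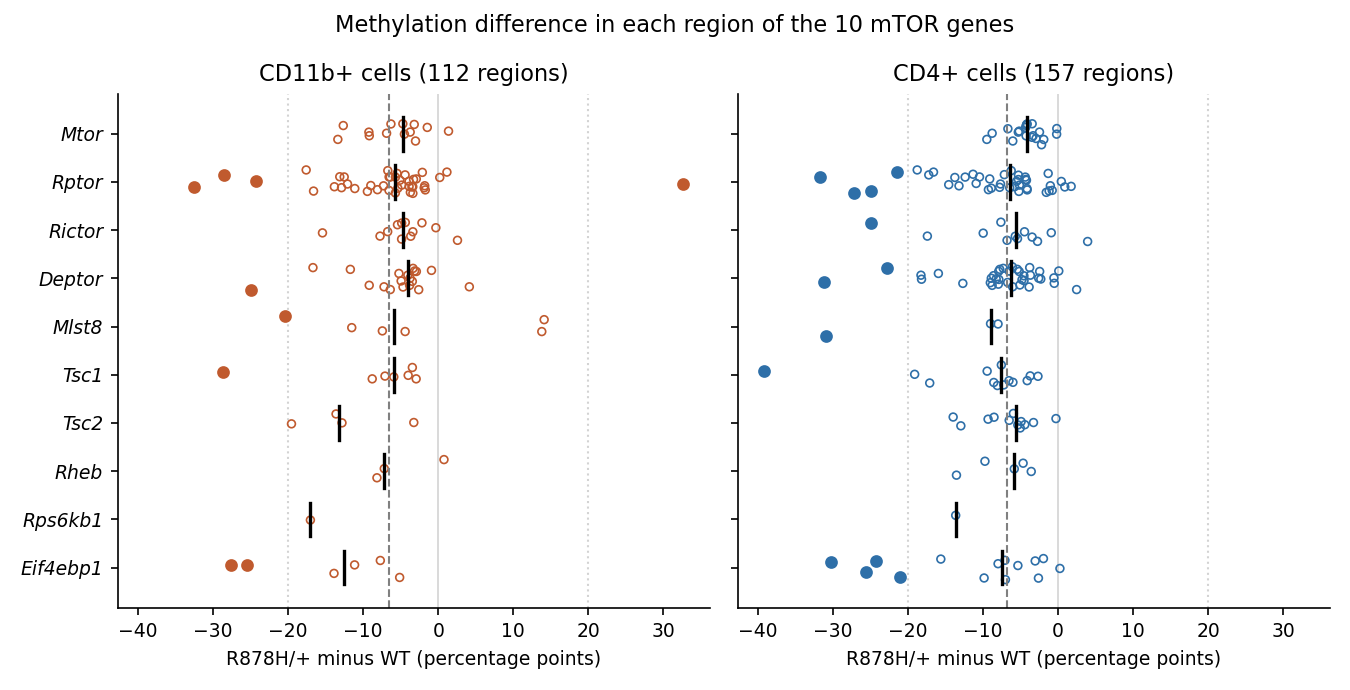
Each point is a region with more than 10 CpG cytosines of one gene (rows), placed by the R878H/+ mean minus the WT mean in percentage points (horizontal axis); filled points are past 20 points, black bars are the gene's median and the dashed line is the median of all listed regions. Most points sit slightly left of 0, the filled ones on the left are spread over *Rptor*, *Rictor*, *Deptor*, *Mlst8*, *Tsc1* and *Eif4ebp1*, and the one filled point on the right is an *Rptor* region of CD11b+ cells.

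The kinase gene itself was highly methylated over most of its regions, and the genotypes differed by a few points. *Mtor* (chr4:148448611-148557683) had 13 regions with more than 10 cytosines in CD11b+ cells, with WT means from 81.6% to 97.9% and R878H/+ means from 68.4% to 96.7%, and the median loss was 4.71 points. Its 20 such regions in CD4+ cells had WT means from 25.7% to 99.0% and a median loss of 4.14 points, and 20 of 20 were lower. WT methylation was 80% or above in 13 of 13 and 19 of 20, and the exception lay in intron 28 (chr4:148509455-148510056, 25.7% to 16.9% in CD4+ cells). Among these regions the largest losses were 13.4 points in intron 31 in CD11b+ cells (chr4:148521795-148522501, 81.8% to 68.4%) and 9.48 points in intron 30 in CD4+ cells (chr4:148517426-148518191, 93.6% to 84.1%). With regions of exactly 10 cytosines included, 27 of 32 were lower in CD11b+ and 42 of 48 in CD4+ cells. In each cell type 1 of those added was lower by more than 20 points, in intron 28 in CD11b+ cells (chr4:148509871-148510391, 60.9% to 40.6%) and in intron 25 in CD4+ cells (chr4:148487197-148487733, 76.7% to 53.3%), both named after their values were seen. Next to the start, a region of 10 cytosines in intron 1 was unmethylated in both genotypes of CD11b+ cells (0.35% and 0%). Weighted by CpG cytosines, the gene's mean was 92.2% in WT and 86.3% in R878H/+ CD11b+ cells, and 29.4% of the genes had a smaller loss. The means in CD4+ cells were 92.5% and 88.4%, and 7.37% of the genes had a smaller loss. Among genes with at least as many regions as *Mtor*, 73.8% in CD11b+ and 77.3% in CD4+ cells had a region called lower, which *Mtor* did not. Over the 4 group means, the genes with the pattern most like *Mtor* were *Gnpnat1*, *Vps13b* and *Napg*, at Euclidean distances of 0.56, 0.846 and 1.07 points among 6817 genes.

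*Rptor*, which recruits substrates to mTORC1, is the longest of the members (chr11:119602905-119899576) and held the most regions, 41 with more than 10 cytosines in each cell type. Called losses lay at exon 9, intron 9 and intron 24 in both. Over exon 9, CD11b+ cells had 67.2% in WT and 34.6% in R878H/+ (chr11:119798966-119800001), and CD4+ cells 81.4% and 56.6% (chr11:119799342-119800170). Intron 9 beside it had 55.7% and 27.3% in CD11b+ cells (chr11:119803426-119804004) and, a few kb on, 83.5% and 62.1% in CD4+ cells (chr11:119806937-119807888). In intron 24 the means were 48.0% and 23.8% in CD11b+ cells over chr11:119875889-119876481. Its first bases are the short CD4+ region printed above. WT methylation over exon 9 and in intron 24 was higher in CD4+ than in CD11b+ cells, and the R878H/+ mean was the lower one in both. CD4+ cells had a further called loss in intron 1 (chr11:119615192-119615563, 80.9% to 53.8%), where the overlapping CD11b+ region went from 53.9% to 40.8%. Over all 41 regions the median loss was 5.69 points in CD11b+ and 6.43 points in CD4+ cells. A gene with this many regions usually had a call: among genes with at least as many regions, 88.4% did in CD11b+ and 84.0% in CD4+ cells.

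The start of *Rptor* went the other way in CD11b+ cells. A region of 109 bp across the start and the first-exon UTR (chr11:119603145-119603253) had a mean of 0.521% in WT and 33.1% in R878H/+ cells. It is rich in CpGs, with 13 CpG dinucleotides and 74.3% GC, and the CD4+ table lists no region within 1 kb of the start other than one in intron 1 (chr11:119604058-119604275), which went from 76.4% to 57.7%. The CD11b+ region that overlaps that one had 66.1% in WT and 53.2% in R878H/+. Higher calls of this kind were a feature of the CD11b+ table. Of its 4545 regions below 20% in WT, 486 were higher by more than 20 points (10.7%), with a median R878H/+ mean of 30.1% and quartiles of 25.1% and 35.6%. The CD4+ table had 2 such regions of 4436. A group mean does not tell how many of the mice, or of the 6 entries of that group, were methylated there. Over all nuclear regions below 5% in WT, the median difference was 0.75 points up in R878H/+ CD11b+ cells, and mitochondrial DNA was also higher in R878H/+ in that table and lower in the CD4+ table. The part of these shifts in the result at *Rptor* was not tested. A smaller gain of 5.42 points was listed in a region of 10 cytosines at exon 2 of *Rptor* (chr11:119657483-119658018, 86.6% to 92.0%).

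*Rictor*, the subunit that defines mTORC2, was highly methylated and had no region called in CD11b+ cells. Its 12 regions with more than 10 cytosines there had WT means of 90.2% to 97.7%. The largest loss among these was 15.4 points over exon 4 (chr15:6743713-6744459, 90.2% to 74.8%). In CD4+ cells 1 of 12 such regions was called, in intron 2 (chr15:6733196-6733692, 82.3% to 57.4%). The same intron held a region of 10 cytosines that was higher in R878H/+ CD4+ cells (chr15:6726359-6726667, 27.8% to 33.6%). In CD11b+ cells the region there, also of 10 cytosines, had 79.0% in WT and 71.0% in R878H/+. The WT means of the cell types were thus 51.2 points apart, more than at any other overlapping pair of member regions.

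*Deptor* encodes the inhibitor that binds mTOR in both complexes. In CD11b+ cells the called loss lay over an internal start within intron 1 (chr15:55133073-55133799, 67.8% to 42.8%), and the wider CD4+ region there went from 80.4% to 64.5%. In CD4+ cells the calls were in intron 1 close to the first start (chr15:55113811-55114094, 66.1% to 43.3%) and in intron 4 (chr15:55196487-55196830, 65.3% to 34.1%). The intron 4 region had a CD11b+ partner of similar loss, 49.0% to 16.6%, that fell outside the call because only 10 cytosines were counted. It is named here after its values were seen, since the naming rule left it out. *Deptor* also had a gain of 6.40 points in CD11b+ cells in a region of 10 cytosines at its last exon (chr15:55253140-55253508, 84.9% to 91.3%). Its median losses were 4.05 points in CD11b+ and 6.29 points in CD4+ cells.

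**Figure D2:**
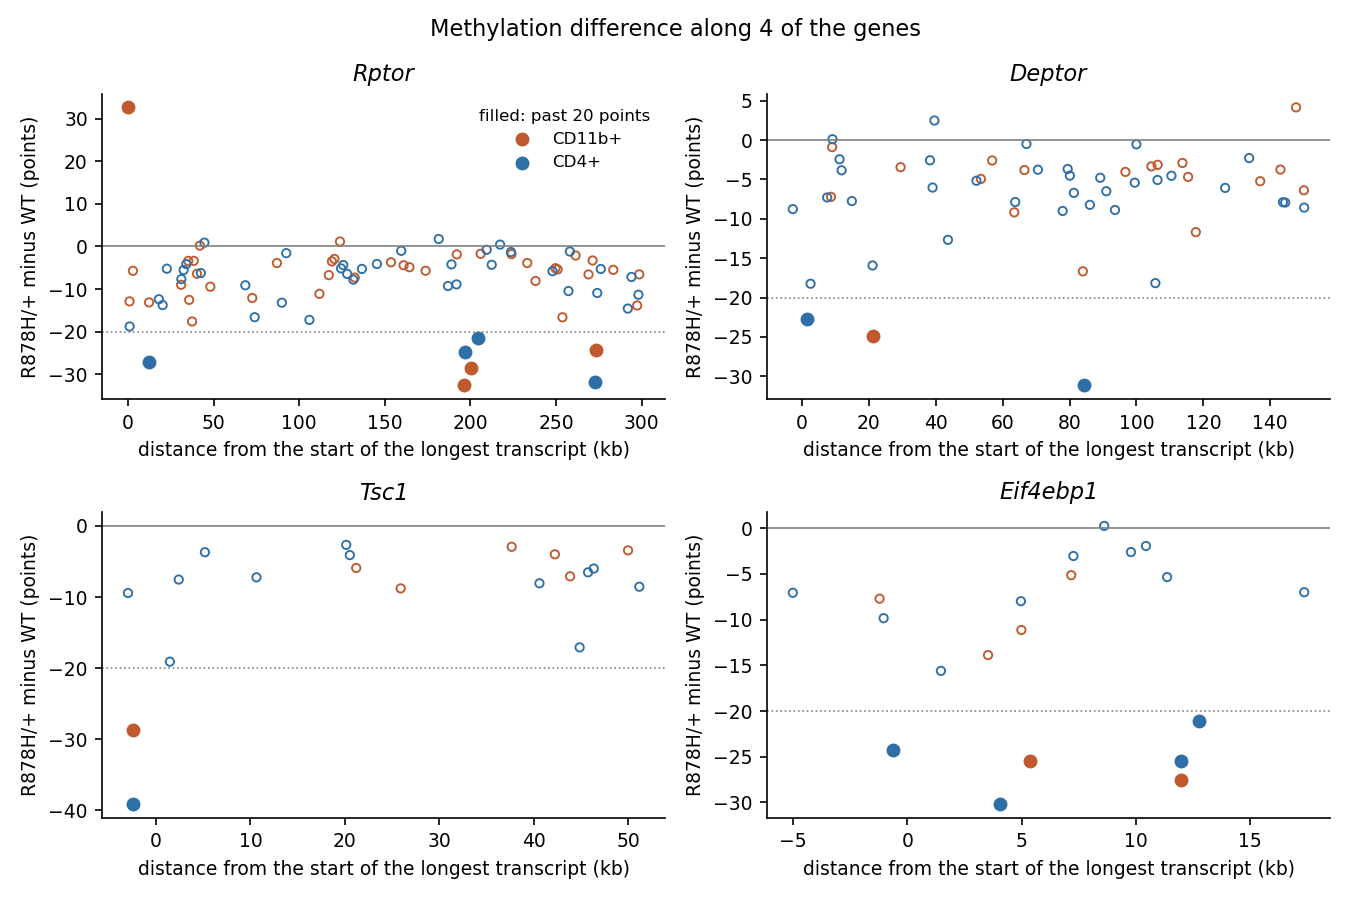
Each panel shows one gene, with the distance of the region's middle from the start of the longest transcript in kb on the horizontal axis and the R878H/+ mean minus the WT mean in percentage points on the vertical axis; filled points are past 20 points. In *Rptor* the filled points of both cell types meet at exon 9, intron 9 and intron 24, in *Tsc1* both lie just upstream of the start, and in *Eif4ebp1* they run from the upstream side to exon 2.

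*Mlst8*, a subunit of both complexes, is short (chr17:24473551-24479078), and its window takes in the neighbor *Pgp*. A region over exons 4 to 6 was called lower in CD11b+ cells (chr17:24477232-24477925, 74.8% to 54.4%), just past the threshold, and the overlapping CD4+ region went from 94.7% to 86.8%. The called region of CD4+ cells lay downstream, over the last exon of *Pgp* (chr17:24471540-24472233, 64.6% to 33.6%). The start of *Mlst8* was unmethylated in CD4+ cells, in a region of 10 cytosines (0.325% and 0.5%). In CD11b+ cells 6 regions over *Pgp*, 2 of them with more than 10 cytosines, had low means in WT (0% to 8.92%) and higher ones in R878H/+ (8.38% to 23.0%), and a GC content of at least 63.5%. These gains lie at the *Pgp* gene and not at *Mlst8*.

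Upstream of mTORC1, the *Tsc1* call was the largest loss of any member region with more than 10 cytosines. It lay 1997 bp (CD11b+) and 2148 bp (CD4+) from the nearest annotated start of *Tsc1* and outside any annotated protein-coding gene. In CD4+ cells its mean was 54.7% in WT and 15.6% in R878H/+ (chr2:28638561-28639089), and in CD11b+ cells 55.3% and 26.6% over a wider stretch of 30 cytosines (chr2:28638284-28639240). WT cells of both types were thus intermediate and nearly equal, and the mutant means were lower in both. In CD4+ cells the first intron was next, just short of the threshold (chr2:28642177-28643227, 79.3% to 60.2%). All 7 (CD11b+) and all 13 (CD4+) *Tsc1* regions with more than 10 cytosines were lower in R878H/+. With regions of exactly 10 included, 14 of 15 and 25 of 25 were lower.

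*Tsc2*, the partner of TSC1 with the catalytic activity, had no called region. Among its regions with more than 10 cytosines, the largest loss in CD11b+ cells, 19.5 points, came close. That region lies upstream of the gene and overlaps the neighbor *Nthl1* (chr17:24633802-24634181), with means of 85.3% and 65.8%. The largest loss of such regions in CD4+ cells was 14.0 points downstream of the gene (chr17:24590781-24591491, 94.4% to 80.4%). With regions of exactly 10 cytosines included, 1 in each cell type was lower by more than 20 points. These lay in intron 16 in CD11b+ cells (chr17:24617869-24618276, 53.7% to 29.45%) and upstream in CD4+ cells (chr17:24633725-24633996, 89.2% to 67.1%). Both were named after their values were seen. For *Rheb* regions with more than 10 cytosines, the largest losses were 8.16 points downstream in CD11b+ cells (chr5:24799466-24800381, 93.2% to 85.1%) and 13.5 points in intron 1 in CD4+ cells (chr5:24834448-24835027, 73.1% to 59.6%). Only 3 and 5 *Rheb* regions had more than 10 cytosines. With regions of exactly 10 cytosines included, 1 *Rheb* region in each cell type was lower by more than 20 points.

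Of the mTORC1 targets, *Rps6kb1* had a single region with more than 10 cytosines in each cell type, both in intron 1. The mean went from 68.3% to 51.3% in CD11b+ cells (chr11:86539887-86540822) and from 88.1% to 74.5% in CD4+ cells (chr11:86541686-86542623), neither past the threshold. *Eif4ebp1* (chr8:27260329-27276674) stood at the other end, with 2 called regions of 6 in CD11b+ cells and 4 of 14 in CD4+ cells within a gene of 16346 bp. One pair was alike in both cell types, in intron 1, with 76.1% and 48.5% in CD11b+ cells (chr8:27272103-27272495) and 81.2% and 55.7% in CD4+ cells (chr8:27272103-27272487). A second call of CD11b+ cells was nearer the start (chr8:27265581-27265812, 55.2% to 29.7%). The other calls of CD4+ cells were upstream of the start (chr8:27259575-27259844, 43.8% to 19.5%), in intron 1 (chr8:27264037-27264764, 78.7% to 48.6%) and at exon 2 (chr8:27272852-27273365, 85.6% to 64.5%). Between the upstream call and the start, a region of 10 cytosines was unmethylated in CD11b+ cells of both genotypes (3.78% and 2.53%). The weighted mean of the gene was 77.9% in WT and 62.8% in R878H/+ CD11b+ cells, and 90.2% of genes had a smaller loss. It was 84.0% and 73.3% in CD4+ cells, with 71.4% of genes below it.

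**Figure D3:**
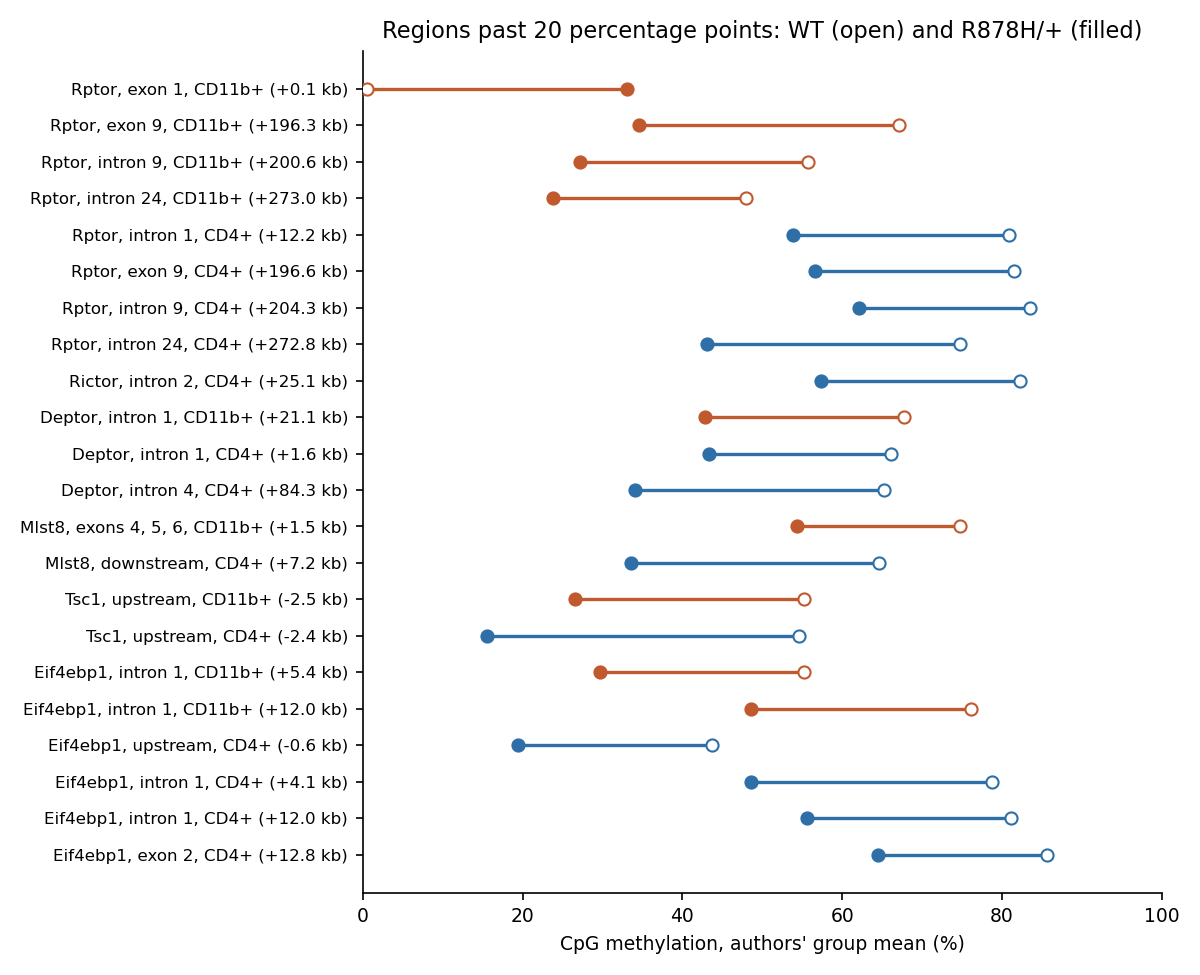
Each line is a member region past 20 percentage points, joining the mean methylation of WT cells (open circle) to that of R878H/+ cells (filled circle) in percent; orange is CD11b+ and blue is CD4+, and the distance from the start of the longest transcript is given in kb. The lower calls start between 43.8% and 85.6% in WT and end between 15.6% and 64.5%, and the *Rptor* exon 1 line alone runs from near 0 upward.

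The called regions were less methylated in WT cells than most member regions. Their WT means ran from 48.0% to 76.1% in CD11b+ cells and from 43.8% to 85.6% in CD4+ cells, with medians of 61.4% and 78.7%, against medians over all member regions above 90%. In CD4+ cells 6 of the 13 were at 80% or above in WT, and in CD11b+ cells 0 of the 8. Most lay within genes, with 5 of 8 in introns and 2 over exons in CD11b+ cells, and 8 of 13 in introns and 2 over exons in CD4+ cells. Within 1 kb of an annotated start of any protein-coding gene, 2 of 7 member regions were called lower in CD11b+ cells (28.6%), beside 15.2% of all 11511 such regions, and 1 of 10 in CD4+ cells (10.0%), beside 16.7% of 14078. Member regions of 40% to 60% methylation in WT CD11b+ cells had a median loss of 24.8 points over 6 regions, beside 16.5 points over all 11302 such regions. Those of 80% and over had a median loss of 4.86 points over 87 regions, beside 5.71 points. The order was similar in CD4+ cells, with 17.7 points over 6 regions against 5.29 points over 129, beside 15.4 and 6.12 points for all regions. Losses were thus larger at intermediate levels in the members and in all listed regions alike.

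**Figure D4:**
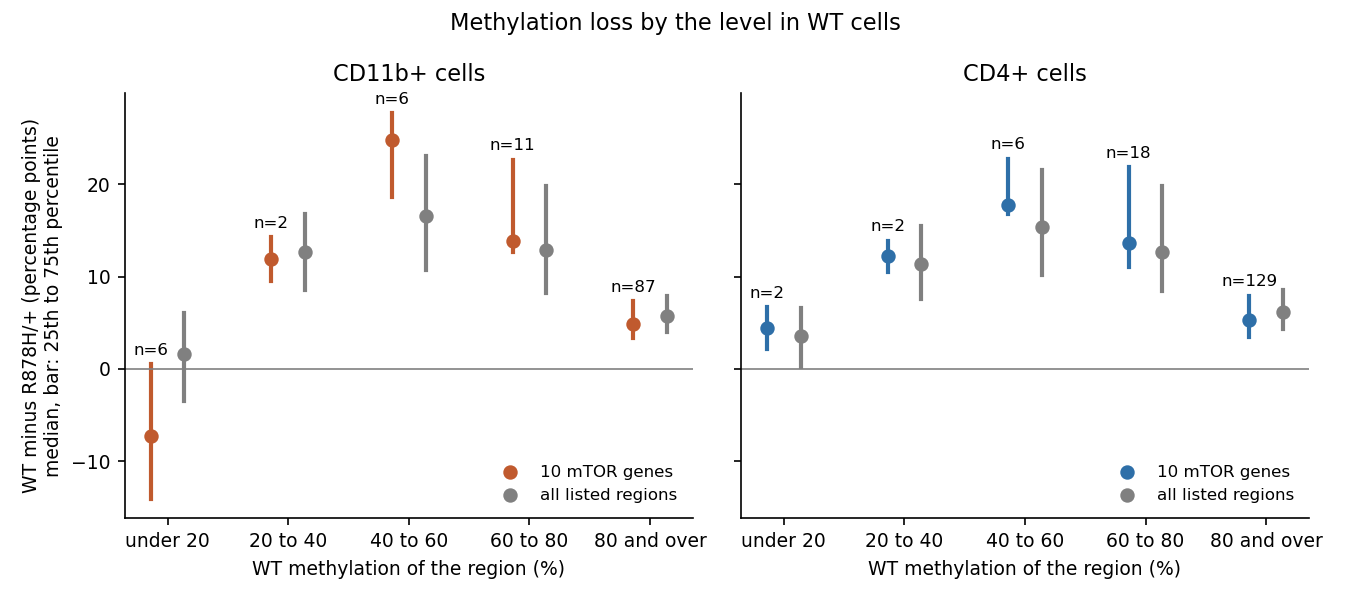
Median loss (WT minus R878H/+, percentage points) of the member regions (colored) and of all listed regions (grey) with more than 10 CpG cytosines, by methylation of the region in WT cells (percent); bars run from the 25th to the 75th percentile of regions and n is the number of member regions. Losses peak at 40% to 60% in both sets and both cell types. The 6 lowest CD11b+ member regions have a median loss of -7.28 points, and 2 of these 6 are lower in R878H/+.

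Called member regions were denser in CpGs than the others and similar in GC content. In CD11b+ cells the called regions had a median of 2.26 CpGs per 100 bp and 49.9% GC, and the members that were not called 1.75 and 48.0%. In CD4+ cells the medians were 2.33 and 46.8% for called regions and 1.48 and 47.7% for the others. All listed regions that were called lower had 2.14 CpGs per 100 bp in CD11b+ cells and 2.10 in CD4+ cells.

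Regions of the cell types could be set side by side where they overlapped by at least 50% of the shorter one, since the tables were segmented separately. Among 27 pairs with more than 10 cytosines in both, 23 were lower in R878H/+ in both cell types and 4 went opposite ways. Both members of 4 pairs were called lower, which were *Rptor* exon 9, *Rptor* intron 24, the region upstream of *Tsc1* and *Eif4ebp1* intron 1. A pair over *Pgp* was the widest opposite one, 8.92% to 23.0% in CD11b+ and 14.4% to 5.41% in CD4+ cells. With regions of 10 cytosines included there were 132 pairs, of which 12 went opposite ways, 1 was higher in both and the others were lower in both. WT means differed by more than 20 points between the cell types in 14 of the 132, higher in CD4+ cells in 9 and in CD11b+ cells in 5. Pairs were counted for the members alone, so no share over all listed regions stands beside these counts. Of all regions with more than 10 cytosines, 95.7% in CD11b+ and 97.3% in CD4+ cells were lower in R878H/+.

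**Figure D5:**
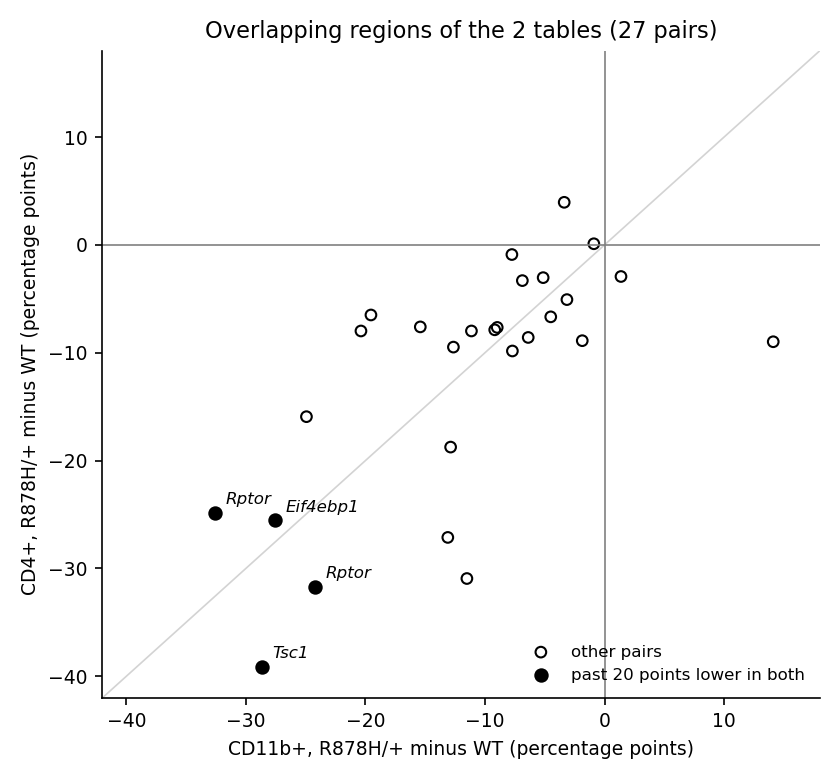
Each point is a pair of overlapping member regions with more than 10 CpG cytosines in both tables, placed by the R878H/+ mean minus the WT mean in percentage points in CD11b+ cells (horizontal) and CD4+ cells (vertical); filled points are past 20 points in both and the diagonal marks equal differences. Of the 27 points 23 lie to the lower left of the zero lines, with *Tsc1* upstream lowest at -28.7 and -39.1.

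The wider pathway was described with 83 further genes in 5 lists. Of the 79 with regions of more than 10 cytosines in CD11b+ cells, 33 had a region called lower (41.8%, beside 32.8% of all genes), and 3 had one called higher. In CD4+ cells 42 of 81 had a region called lower (51.9%, beside 36.4%) and 0 had one called higher. The median loss over their regions was 7.54 points in CD11b+ and 7.72 points in CD4+ cells, above the medians of the 10 members and of all listed regions. Called shares were 11.5% of 641 regions, beside 7.75% of all regions, and 12.5% of 837, beside 6.89%. The gene shares were not matched for the number of regions per gene, and nothing particular to these lists was tested.

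Inputs from PI3K and AKT, which activate mTORC1 through the TSC complex, had the highest share of called regions in CD11b+ cells among the lists, 21 of 134 (15.7%). In CD4+ cells the share was 26 of 180 (14.4%), and those of all regions were 7.75% and 6.89%. *Akt1*, a kinase that phosphorylates TSC2, had a region that went from 88.6% to 45.6% in CD11b+ cells (chr12:112666065-112666730) and one from 75.7% to 43.0% in CD4+ cells (chr12:112665571-112665776). *Pik3r1*, the p85 regulatory subunit, had 6 and 4 called regions, the largest loss being 39.3 points in CD11b+ (69.2% to 29.9%) and 36 points in CD4+ cells (83.5% to 47.5%). *Pik3cd*, the leukocyte catalytic subunit, had 5 in each. Sensors of energy and stress had calls in 7 of 12 genes in CD11b+ cells (58.3%, beside 32.8% of all genes). In CD4+ cells 7 of 11 had calls (63.6%, beside 36.4%). Of these *Sesn2*, a stress-induced inhibitor of mTORC1, lost 45.2 points in CD11b+ cells (chr4:132513510-132514029, 62.6% to 17.4%) and 48.7 points in CD4+ cells (chr4:132513511-132514121, 73.3% to 24.6%). *Prkaa1*, a catalytic subunit of AMPK, went from 75.6% to 46.2% in CD11b+ and from 76.6% to 32.7% in CD4+ cells at its most different regions.

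Of the genes that sense amino acids at the lysosome, 6 of 24 had a called region in CD11b+ cells (25%, beside 32.8% of all genes). In CD4+ cells 9 of 27 did (33.3%, beside 36.4%), so both gene shares were below those of all genes. Counted by region the shares were above those of all regions. They were 9.26% of 108 regions in CD11b+ cells, beside 7.75%, and 9.79% of 143 in CD4+ cells, beside 6.89%. *Fnip2*, a folliculin partner, went from 60.4% to 19.8% in CD11b+ cells (chr3:79528042-79528776) and from 84.8% to 48.2% in CD4+ cells (chr3:79519842-79520283). *Depdc5*, of the GATOR complex that restrains mTORC1, was called at the same region in both cell types (chr5:32977767-32978171), with 41.2% and 16.4% in CD11b+ and 65.8% and 30.4% in CD4+ cells. Further subunits and assembly factors had calls in 5 of 10 genes in CD11b+ cells (50%, beside 32.8% of all genes). In CD4+ cells 6 of 10 had calls (60%, beside 36.4%). Called regions of this list were 7.29% of 96 in CD11b+ cells, beside 7.75% of all regions. In CD4+ cells they were 9.26% of 108, beside 6.89%. Among the called genes was *Prr5l* of mTORC2 (76.8% to 47.3% in CD4+ cells). Outputs of mTOR had calls in 6 of 18 genes in CD11b+ cells (33.3%, near the share of all genes) and 9 of 18 in CD4+ cells (50%, beside 36.4%). *Sgk1*, a kinase downstream of mTORC2, had 4 called regions of 15 in CD11b+ and 6 of 25 in CD4+ cells. *Eif4e*, the cap-binding factor that 4E-BP holds back, was called at one place in both (chr3:138531417-138531991), with 70.6% and 41.8% in CD11b+ and 80.3% and 48.3% in CD4+ cells.

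Higher calls of the lists were in CD11b+ cells and, like that of *Rptor*, near unmethylated starts. The genes given here were named after their values were seen. *Irs2*, an insulin receptor adaptor, had 0.14% in WT and 33.2% in R878H/+ (chr8:11007476-11007924). *Rraga*, a GTPase that brings mTORC1 to the lysosome, had 0.478% and 23.5% (chr4:86575967-86576275).

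The count of cytosines set aside some regions with large losses. Among member regions with exactly 10, the fewest that the tables list, 16 of 181 in CD11b+ cells (8.84%) and 11 of 196 in CD4+ cells (5.61%) were lower by more than 20 points. The same share over all listed regions of exactly 10 cytosines was not computed, so whether these shares are usual is not known. Just inside the threshold were *Mlst8* exons 4 to 6 in CD11b+ cells with a loss of 20.4 points and *Eif4ebp1* exon 2 in CD4+ cells with 21.1 points. Just outside were the region upstream of *Tsc2*, at *Nthl1*, in CD11b+ cells with 19.5 points and *Tsc1* intron 1 in CD4+ cells with 19.1 points.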

How the data were processed

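WGBS libraries were prepared from DNA of splenic CD11b+ and CD4+ cells of 4 WT and 4 *Dnmt3a*R878H/+ mice each. The authors mapped reads to mm10 with BISCUIT and compared the genotypes with metilene, which cuts the genome into regions and averages each group. Versions, settings of the segmentation and a coverage minimum are not given in the sources used here. The call rule takes the limits on CpG number and difference from the study's criteria and leaves out its false discovery rate. The 2 deposited tables hold, without a header, the mean methylation percent of each group and the number of CpG cytosines per region, together with the authors' differences, p-values and q-values, which were not used. They have 0 columns of single samples and no depth per region, so the precision of a value is unknown, no test was made and no paired fit was possible. The tables do not name their groups. WT was taken to be the one given first, after the study's figures.

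Starts were counted from 1. Regions were assigned to the 10 genes by at least 1 shared base with the body plus 5 kb (GENCODE release 21). Exon and intron numbers are those of the longest coding transcript. Sequence was read from mm10. Named were all members, their called regions, the largest loss with more than 10 cytosines, regions within 1 kb of a start, gains above 5 points, and up to 4 genes per pathway list called in both cell types. The members and lists were chosen with earlier results of these data known. Alternatives changed the window, the cytosine minimum, the threshold, the overlap, shared regions and weighting. The overlap and the call rule were tested on simulated data. For 1 gene of the lists the values are not reported here. Scripts ran on python 3.11.15 with pandas 2.3.3, numpy 2.4.6 and matplotlib 3.10.9, and scipy 1.17.1 gave the binomial limits used to set shares under the alternatives beside the reported ones.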

Additional observations from a re-analysis of the deposited data

Results flagged for a closer look

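Mitochondrial regions stood out because every one moved one way in CD11b+ cells and the opposite way in CD4+ cells. R878H/+ minus WT had a median of 2.67 points over 20 regions in CD11b+ cells, with 20 of 20 higher, and of -5.77 points over 21 regions in CD4+ cells, with 21 of 21 lower. The difference was not tested, since the tables hold group means only, and regions of one small genome are not replicates.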

How the results depend on the processing

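The limit of these results is that only group means were at hand, so neither single mice nor a coverage minimum could be left out or changed, and the depth of each region is unknown. No paired analysis was possible because the columns carry no replicate numbers. Of 42 alternative values, 30 stayed within 1.5 times the reported count or median, or within the binomial interval of the reported share. The count of member regions called lower was 8 in CD11b+ and 13 in CD4+ cells. It was 1 and 0 with more than 20 cytosines, 24 and 24 with every listed region, 28 and 35 with a difference above 10 points, and 1 and 5 with one above 30 points. With more than 20 cytosines, 5 and 8 regions were left, the median loss was 8.98 and 3.94 points, and the share lower in R878H/+ was 100% and 62.5%. By construction these alternatives keep fewer or more regions, and any other cause was not tested.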
